A study of Mus musculus with 8 samples.

Results

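The Polycomb genes described here encode subunits of Polycomb repressive complex 2 (PRC2: Eed, Ezh1, Ezh2, Suz12, Rbbp4 and its partner Jarid2) and of Polycomb repressive complex 1 (PRC1: Ring1, Rnf2, Pcgf1 and Pcgf6). These 10 genes were chosen by name, with earlier results of these data known. Of them, 9 were listed in the expression tables of all 8 libraries, out of 15962 genes listed in all 8. Ring1 was listed in the tables of the GV and MII libraries only, at 0.23, 0.10, 0.09 and 0 scaled TPM (a length-normalised share of the transcripts in a library), and was not tested. All 9 others passed the filter on low values, in every group, and were among 13968 genes tested.

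PRC2 places methyl groups on lysine 27 of histone H3 (H3K27me3), and PRC1 places a single ubiquitin on histone H2A. Both marks are associated with silenced developmental genes. In the growing oocyte they are laid down on the maternal genome, and maternal H3K27me3 is known to silence a small set of genes on the maternal allele in the early embryo. A fully grown oocyte at the germinal vesicle (GV) stage stops transcription, and during maturation to metaphase II (MII) its mRNA levels depend on storage and decay. BTG4 is an adaptor that brings the CCR4-NOT deadenylase to maternal mRNAs, and its loss is known to leave many of these mRNAs in place.

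Polyadenylated RNA was measured by Smart-seq2 in 4 groups of 2 libraries, each made from a pool of 15 oocytes with the zona pellucida removed. The oocytes came from Crl:CD1 (ICR) females, which the study's methods give as 6 weeks old. GV and MII oocytes came from in vitro culture and were not injected. Btg4wt and Btg4tm oocytes were MII oocytes after microinjection of RNA made in vitro for Myc-tagged BTG4, either wild type or with alanines in place of a threonine and a pair of neighbouring serines. The labels give no deletion of Btg4 in any group, and the forms were thus injected into oocytes not labelled as lacking their own Btg4. The paper states that expression of either form seemed to lower endogenous BTG4 protein, which it says needs to be clarified. How much endogenous BTG4 remained in the injected libraries was not tested here. The labels do not say whether the libraries of a group came from separate mice or injections. The p-values rest on the spread between libraries of a group, pooled over the 4 groups, and this spread may be technical. Reverse transcription started from an oligo(dT) primer, and fewer molecules, shorter poly(A) tails and less RNA per oocyte cannot be told apart in such pools.

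TPM values are per unit of gene length, and the sequencing depth behind them is unknown. The libraries were put on 1 scale with median-of-ratios factors, which ran from 0.948 to 1.11. All 12 markers of oocytes were above 0 in every library, and their summed level was 31959 to 47782 scaled TPM. By the calls defined below, 5 of them were lower in MII than in GV oocytes (Zp1, Zp2, Zp3, Nobox and Figla). In Btg4tm against Btg4wt oocytes, Zp1, Zp2, Zp3 and Figla were higher and Kit was lower. Of 12 markers of cumulus and granulosa cells, 5 were listed in any table. Their summed level was 32.9 and 33.1 scaled TPM in GV, 41.0 and 44.0 in MII, 40.8 and 43.0 in Btg4wt, and 38.6 and 34.5 in Btg4tm oocytes. Cyp19a1, the highest of them, ranged from 15.7 to 26.8 scaled TPM. Of the 3 that were tested, Inha alone was called. It had 4.37 and 2.11 scaled TPM in GV, 0 and 0.53 in MII, 1.88 and 1.09 in Btg4wt, and 9.83 and 5.18 in Btg4tm libraries. It was thus called lower in MII than in GV (log2 fold change −1.72, limma adjusted p = 0.0048) and higher in Btg4tm than in Btg4wt oocytes (1.74, limma adjusted p = 0.0061). These markers moved with the comparisons below, and their part in them was not tested. Mitochondrially encoded genes held 0.623% and 0.648% of the TPM in GV, 2.70% and 2.60% in MII, 2.05% and 1.75% in Btg4wt, and 0.762% and 1.02% in Btg4tm libraries. This share moved with the comparisons too, and its part was not tested either. It matters for every direction given here, because scaling to these genes turned most of the directions around.

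Btg4 RNA, endogenous and injected together, was 2650 and 2794 scaled TPM in GV, 5792 and 6002 in MII, 5178 and 5510 in Btg4wt, and 3725 and 4068 in Btg4tm oocytes. Neither injected group was above uninjected MII oocytes, and these values do not separate injected from endogenous RNA. The paper reports immunoblots that showed overexpression of the wild-type and the mutant protein in oocytes.

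The genes lie on GRCm38 as follows, by GENCODE M21. Ezh2 is on the minus strand of chromosome 6 from 47530139 to 47595341, and Ezh1 is on the minus strand of chromosome 11 from 101191115 to 101226463. Suz12 is on the plus strand of chromosome 11 from 79993106 to 80034123, and Eed is on the minus strand of chromosome 7 from 89954654 to 89980983. Jarid2 is on the plus strand of chromosome 13 from 44729474 to 44921643, and Rbbp4 is on the minus strand of chromosome 4 from 129307100 to 129335370. Rnf2 is on the minus strand of chromosome 1 from 151458004 to 151500955, and Ring1 is on the minus strand of chromosome 17 from 34020792 to 34024680. Pcgf1 is on the plus strand of chromosome 6 from 83077869 to 83080855, and Pcgf6 is on the minus strand of chromosome 19 from 47033617 to 47050906.

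The ends of the 3′UTRs are shown because the length of the poly(A) tail in a maturing oocyte is controlled in part by elements there. The cytoplasmic polyadenylation element, here TTTTAT or TTTTAAT on the transcript strand only, lies near the polyadenylation hexamer, here AATAAA or ATTAAA. In the last 100 bases of the 3′UTR, the first element was found in Eed and Rnf2 alone, 67 and 46 bases before the end. The matches are exonic and lie in the 3′UTR. They are given with their surroundings, the motif in capitals. The match in Eed overlapped no hexamer, and Rnf2 held no hexamer in this window.
Eed: tgtgttatTTTTATtgtgatggaaacaaac
Rnf2: gtatgtgtTTTTATctgtctatgggagcac

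The 4 genes that were called higher in MII than in GV oocytes by the main scaling had the hexamer in this window and no TTTTAT or TTTTAAT. Their hexamer, in capitals, lay 20 bases before the end in Ezh1, 31 in Ezh2, 76 in Suz12 and 23 in Jarid2.
Ezh1: gacctcttatctAATAAAgtgttaagactc
Ezh2: tatttaataaccAATAAAcatactggcata
Suz12: gtttgtttttacATTAAAtgtttatttgaa
Jarid2: acaaggtttaatAATAAAaagttttttgga

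Of the 8 tested Polycomb genes with a 3′UTR of at least 100 bases, 2 held the first element (25%), beside 20.0% of 10525 tested genes with such a 3′UTR. The hexamer was in 7 of the 8 (87.5%) and in 81.9% of all. Pcgf1, with a 3′UTR of 98 bases, was left out of these counts. The sequences are reference sequences of GENCODE M21, from 1 transcript per gene, and the 3′ ends used in these oocytes were not measured.

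In GV oocytes, Pcgf1 was the most abundant of the 9 Polycomb RNAs by far, at 2576 ± 251 scaled TPM (SD, n = 2). This level is uncertain, because 31.3% of the 50-base stretches of its transcript also occur in the gene Gm8930. Pcgf1 encodes the PCGF subunit of the KDM2B-BCOR form of PRC1. Eed followed at 222 ± 22.1 (SD, n = 2), then Ezh2 at 169 ± 9.08, Pcgf6 at 136 ± 10.4, Rnf2 at 53.2 ± 4.51 and Suz12 at 42.1 ± 1.66. Ezh1, Jarid2 and Rbbp4 were lowest, at 20.4 ± 0.615, 20.1 ± 1.33 and 11.7 ± 1.08 scaled TPM. The libraries of Ezh1 and Jarid2 overlapped, while each other neighbour in this order was separated in its 2 libraries. In MII oocytes Ezh2 stood above Eed in both libraries, at 376 ± 6.70 against 176 ± 1.93 scaled TPM (SD, n = 2). Eed was still above Pcgf6 in both, Suz12 overlapped Rnf2, and Ezh1 overlapped Jarid2.

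In the paralog pairs of Rnf2 and Ring1, Ezh2 and Ezh1, and Rbbp7 and Rbbp4, 1 was far more abundant. Other paralogs were not compared. Rnf2, which encodes the RING1B ubiquitin ligase of PRC1, was at 50.03 to 95.1 scaled TPM over the 8 libraries. Ring1 was at most at 0.23, and only the GV and MII libraries listed it. Ezh2, the main methyltransferase of PRC2, was 8.28 ± 0.195 times (SD, n = 2) the level of Ezh1 in GV, 8.22 ± 1.03 in MII, 7.97 ± 0.271 in Btg4wt and 11.99 ± 0.339 in Btg4tm oocytes. Rbbp7, the close relative of the histone chaperone gene Rbbp4, was 183 to 402 times the level of Rbbp4, with the 2 highest ratios in the Btg4tm libraries. In all these ratios both genes are in TPM, that is, per length.

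**Figure D1:**
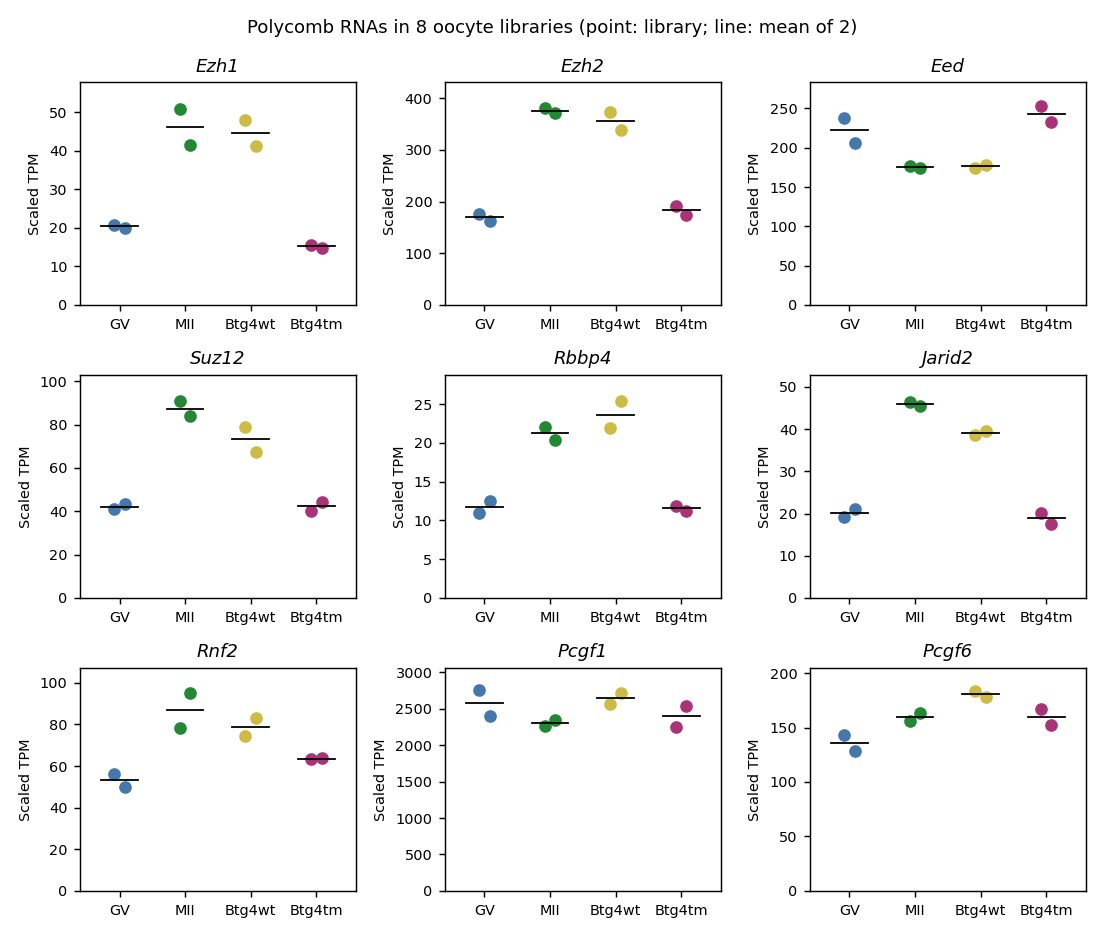
Scaled TPM (linear axis from 0) of the 9 Polycomb RNAs in GV, MII, Btg4wt and Btg4tm oocytes. Points are libraries and lines are means of 2 libraries. Ezh2 sits at 371 to 381 in MII and at 163 to 176 in GV libraries by this scaling; scaled to mitochondrially encoded genes, it is lower in MII than in GV oocytes.

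Maturation was compared first, by MII against GV oocytes. Calls needed a p-value from limma under 0.05 after Benjamini-Hochberg adjustment, and a log2 fold change beyond 1 in size (the fold limit). With the median-of-ratios scaling, 4 of 9 Polycomb genes were called higher in MII (Ezh1, Ezh2, Suz12 and Jarid2), beside 12.5% of all genes tested, and all 4 turned to lower values when the libraries were scaled to mitochondrially encoded genes. No Polycomb gene was called lower, beside 24.0% of all genes. An unadjusted p under 0.05 was found for 7 of the 9 and for 9281 of the 13968 genes tested. At any fold change, 6 of 9 passed the adjusted p upwards, beside 29.8% of all genes. Eed alone passed it downwards, beside 32.8%. The median log2 fold change was 0.81 over the 9 genes and −0.0017 over all genes. When scaled to mitochondrially encoded genes, the medians were −1.27 and −1.74, with 6 of the 9 genes above the median of all genes. Without that scaling, 7 of 9 were above it, whether the TPM were scaled by the median of ratios, by quantiles or left as deposited.

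The methyltransferase genes of PRC2 are described first. Ezh2 had 176 and 163 scaled TPM in GV and 381 and 371 in MII libraries. The groups were well apart, with a log2 fold change of 1.15 (standard error, SE, 0.10, limma adjusted p = 2.8e-05). This was a fold of 2.21, and scaling to mitochondrially encoded genes made it a fall, to −1.06 against a median of −1.74 for all genes. Ezh1, whose product is the less active methyltransferase of non-dividing cells, had 20.9 and 20.0 scaled TPM in GV and 50.8 and 41.5 in MII libraries. Its log2 fold change was 1.13 (SE 0.14, limma adjusted p = 0.00021). It was 0.997, just under the fold limit, without MII replicate 1, and −1.02 when scaled to mitochondrially encoded genes.

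The other core subunits did not all follow the methyltransferases. Suz12, the subunit on which PRC2 is assembled, had 40.9 and 43.2 scaled TPM in GV and 90.9 and 83.8 in MII libraries. The log2 fold change of Suz12 was 1.04 (SE 0.12, limma adjusted p = 0.00014). It stood near the limit for a call and was 0.997 without GV replicate 1 and 0.990 without MII replicate 1. Rbbp4, which binds histones, had 10.9 and 12.5 scaled TPM in GV and 22.1 and 20.3 in MII libraries, and passed the adjusted p but not the fold limit (log2 fold change 0.81, adjusted p = 0.0016, limma). Reads on Rbbp4 cannot be told apart from reads of genes on the opposite strand over 18% of its exonic bases, since counting ignored strand.

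Eed encodes the subunit that reads H3K27me3 and stimulates the methyltransferase. It had 238 and 207 scaled TPM in GV and 177 and 175 in MII libraries, so that both MII libraries were below both GV libraries. Its log2 fold change was −0.33 (SE 0.10, limma adjusted p = 0.022), a drop to 0.794 of the GV level that did not pass the fold limit. Eed was below the median of all genes under each of the 4 scalings, and −2.54 when scaled to mitochondrially encoded genes. Over 6.82% of its exonic bases Eed overlaps a transcript of the opposite strand, E230029C05Rik, and reads there cannot be told apart without strand. The ratio of Ezh2 to Eed within a library does not depend on a scaling factor. It was 0.739 and 0.788 in GV and 2.15 and 2.13 in MII libraries.

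Jarid2, whose product guides PRC2 to DNA and stimulates it, had 19.1 and 21.0 scaled TPM in GV and 46.5 and 45.6 in MII libraries. Its log2 fold change was 1.16 (SE 0.13, limma adjusted p = 8.6e-05), and −0.99 when scaled to mitochondrially encoded genes. Left as deposited, the TPM gave a call for Jarid2 alone, with log2 fold changes of 0.98 for Ezh1, 0.99 for Ezh2 and 0.88 for Suz12, each just under the fold limit.

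Among Rnf2, Pcgf1 and Pcgf6 of PRC1, Rnf2 alone passed the adjusted p, and no test compared these genes with each other. Rnf2 had 56.4 and 50.03 scaled TPM in GV and 78.5 and 95.1 in MII libraries. Its log2 fold change was 0.69 (SE 0.13, limma adjusted p = 0.0019), past the adjusted p but not the fold limit, and −1.49 when scaled to mitochondrially encoded genes. Pcgf1 had 2754 and 2398 scaled TPM in GV and 2264 and 2346 in MII libraries, with a log2 fold change of −0.16 (95% interval −0.41 to 0.097). Pcgf6, a subunit of the germline-linked PRC1 that holds MGA and MAX, had 144 and 129 scaled TPM in GV and 156 and 164 in MII libraries, with a log2 fold change of 0.23 (95% interval −0.0039 to 0.46). Pcgf1 and Pcgf6 did not pass the adjusted p (0.24 and 0.079, limma). The level of Pcgf1 is uncertain, because 31.3% of the 50-base stretches of its transcript of 918 bases also occur in the gene Gm8930 and reads of low mapping quality were dropped.

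**Figure D2:**
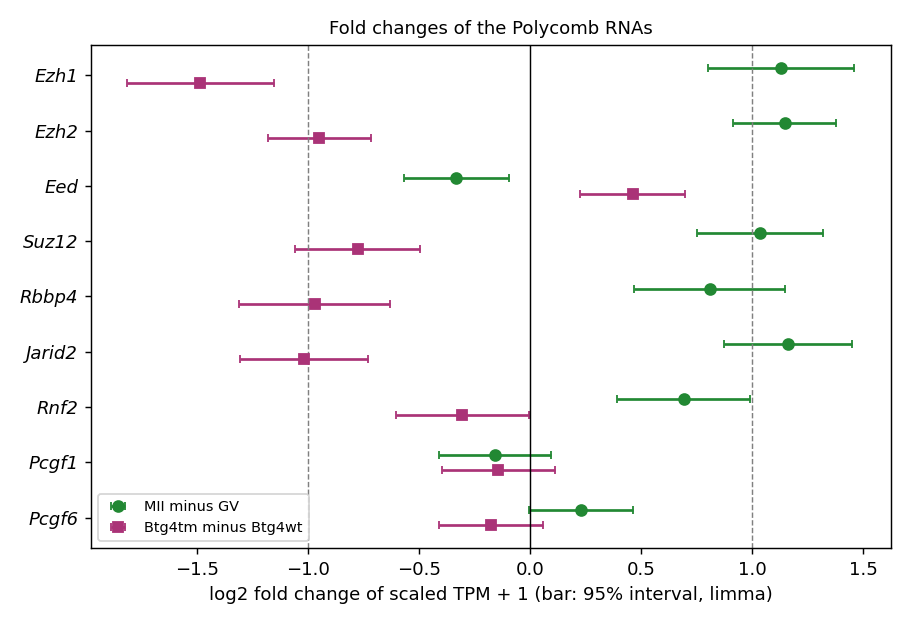
Log2 fold changes of scaled TPM + 1 for MII minus GV (circles) and Btg4tm minus Btg4wt (squares), with 95% intervals from limma; dashed lines mark the fold limit of 1. Ezh1, Ezh2, Suz12 and Jarid2 lie beyond 1 in MII minus GV and Ezh1 and Jarid2 beyond −1 in Btg4tm minus Btg4wt, by the median-of-ratios scaling, and scaling to mitochondrially encoded genes turns all of these except Ezh1 in the second comparison to the other side of 0.

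The mutant was then compared with wild-type BTG4 in injected MII oocytes. With the median-of-ratios scaling, 2 of 9 Polycomb genes were called lower in Btg4tm than in Btg4wt oocytes (Ezh1 and Jarid2), beside 7.94% of all genes tested, and neither was called when scaled to mitochondrially encoded genes, where Jarid2 was at 0.033. No Polycomb gene was called higher, beside 18.1% of all genes. An unadjusted p under 0.05 was again found for 7 of the 9, and for 7759 of the 13968 genes tested. At any fold change, 5 of 9 passed the adjusted p downwards, beside 23.3% of all genes. Eed alone passed it upwards, beside 26.2%. The median was −0.78 over the 9 genes and 0.0077 over all genes. Scaled to mitochondrially encoded genes, these medians were 0.29 and 0.88, with 6 of the 9 genes below the median of all genes.

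Ezh1 had the largest difference of the 9 in this comparison, with 47.9 and 41.4 scaled TPM in Btg4wt and 15.7 and 14.9 in Btg4tm libraries. The groups were far apart, with a log2 fold change of −1.48 (SE 0.14, limma adjusted p = 7.8e-05). It kept its sign under all 4 scalings, at −0.44 (adjusted p = 0.11) when scaled to mitochondrially encoded genes. Ezh2 had 373 and 338 scaled TPM in Btg4wt and 192 and 175 in Btg4tm libraries. Its log2 fold change of −0.95 (SE 0.10, limma adjusted p = 0.00013) passed the adjusted p and missed the fold limit, and was 0.13 when scaled to mitochondrially encoded genes.

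The log2 ratio of Ezh1 to Ezh2 (TPM + 1) was lower by 0.53 in Btg4tm than in Btg4wt oocytes, with both Btg4tm libraries below both Btg4wt libraries. An exact two-sided permutation test gave p = 0.333, the smallest that 2 against 2 libraries allow. In MII against GV oocytes the ratio differed by −0.017 (exact permutation p = 1), and the libraries overlapped. Ring1 was too low to form a ratio with Rnf2.

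Jarid2 had 38.6 and 39.5 scaled TPM in Btg4wt and 20.1 and 17.5 in Btg4tm libraries, with a log2 fold change of −1.02 (SE 0.13, limma adjusted p = 0.00028). It stood at the fold limit, and was −0.92 without Btg4tm replicate 2. Suz12 had 79.0 and 67.4 scaled TPM in Btg4wt and 40.0 and 44.5 in Btg4tm libraries, and Rbbp4 had 21.9 and 25.4 against 11.8 and 11.3. Their log2 fold changes were −0.78 (adjusted p = 0.0011, limma) and −0.97 (adjusted p = 0.00088, limma), past the adjusted p but not the fold limit. Scaled to mitochondrially encoded genes, both turned, to 0.29 and 0.055.

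By the median-of-ratios scaling, Eed again moved against its partners in PRC2. It had 175 and 178 scaled TPM in Btg4wt and 254 and 233 in Btg4tm libraries, with no overlap, and a log2 fold change of 0.46 (SE 0.10, limma adjusted p = 0.0063) that did not pass the fold limit. The difference was positive under all 4 scalings. When scaled to mitochondrially encoded genes, Ezh2, Suz12, Jarid2 and Rbbp4 were above 0 too, and only Ezh1 of these partners stayed below 0. Within libraries, the ratio of Ezh2 to Eed was 2.13 and 1.90 in Btg4wt and 0.757 and 0.751 in Btg4tm oocytes, near the values in MII and in GV oocytes in that order.

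None of the 3 tested PRC1 genes passed the adjusted p between Btg4tm and Btg4wt. Rnf2 had 74.4 and 83.2 scaled TPM in Btg4wt and 63.3 and 63.8 in Btg4tm libraries, with a log2 fold change of −0.30 (95% interval −0.60 to −0.0052, adjusted p = 0.085, limma). Pcgf1 had 2566 and 2718 against 2255 and 2538, with −0.14 (95% interval −0.40 to 0.11). Pcgf6 had 183 and 178 against 167 and 153, with −0.18 (95% interval −0.41 to 0.058). The intervals of Pcgf1 and Pcgf6 leave room for differences in either direction. Scaling to mitochondrially encoded genes put Rnf2, Pcgf1 and Pcgf6 above 0, at 0.77, 0.94 and 0.91.

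**Figure D3:**
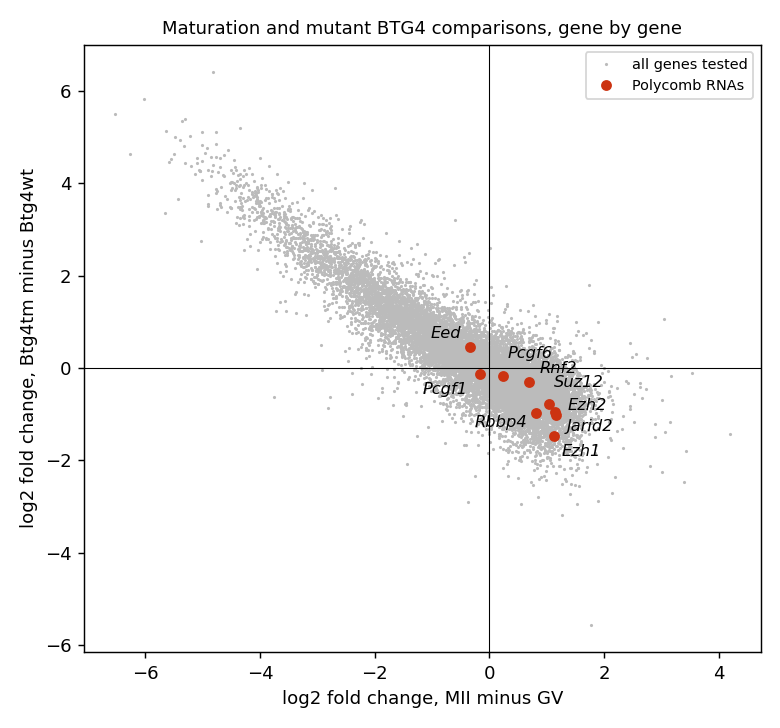
Log2 fold change of each gene tested (grey) and of the 9 Polycomb genes (red), MII minus GV on the horizontal axis and Btg4tm minus Btg4wt on the vertical axis, by the median-of-ratios scaling. The comparisons share no library. Ezh1, Ezh2, Suz12, Jarid2, Rbbp4, Rnf2 and, nearer 0, Pcgf6 lie to the lower right, Pcgf1 to the lower left and Eed to the upper left. Scaling to mitochondrially encoded genes shifts all genes by a median of −1.74 horizontally and 0.88 vertically.

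The remaining pairs of groups set injected against uninjected oocytes and so cross separately made tables. Injection and table cannot be told apart in them. Between Btg4wt and uninjected MII oocytes no Polycomb gene was called or passed the adjusted p in either direction, as in all genes (0% higher and 0% lower, limma), and 0 of 9 had an unadjusted p under 0.05, beside 1655 of all genes. The estimates ran from −0.26 for Suz12 (95% interval −0.54 to 0.028) to 0.20 for Pcgf1 (95% interval −0.057 to 0.45). Scaled to mitochondrially encoded genes, all 9 were above 0, beside a median of 0.39 for all genes, and none was called.

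Between Btg4tm and GV oocytes, again 0 of 9 were called in either direction, beside 1.02% of all genes higher and 1.02% lower (limma). None passed the adjusted p at any fold change, beside 7.66% higher and 3.73% lower. Only Ezh1 had an unadjusted p under 0.05, beside 4147 of all genes, at −0.40 (95% interval −0.73 to −0.067, adjusted p = 0.11, limma). Its 15.7 and 14.9 scaled TPM in Btg4tm lay below the 20.9 and 20.0 in GV libraries, and when scaled to mitochondrially encoded genes it was called lower, at −1.02. Under that scaling all 9 were below 0, beside a median of −0.64 for all genes. By the main scaling, for the other 8 genes the estimates ran from −0.10 for Pcgf1 to 0.25 for Rnf2 (95% interval −0.044 to 0.55). Btg4tm and GV oocytes differ in stage as the labels give it, and a p that misses the threshold does not show equal levels.

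**Figure D4:**
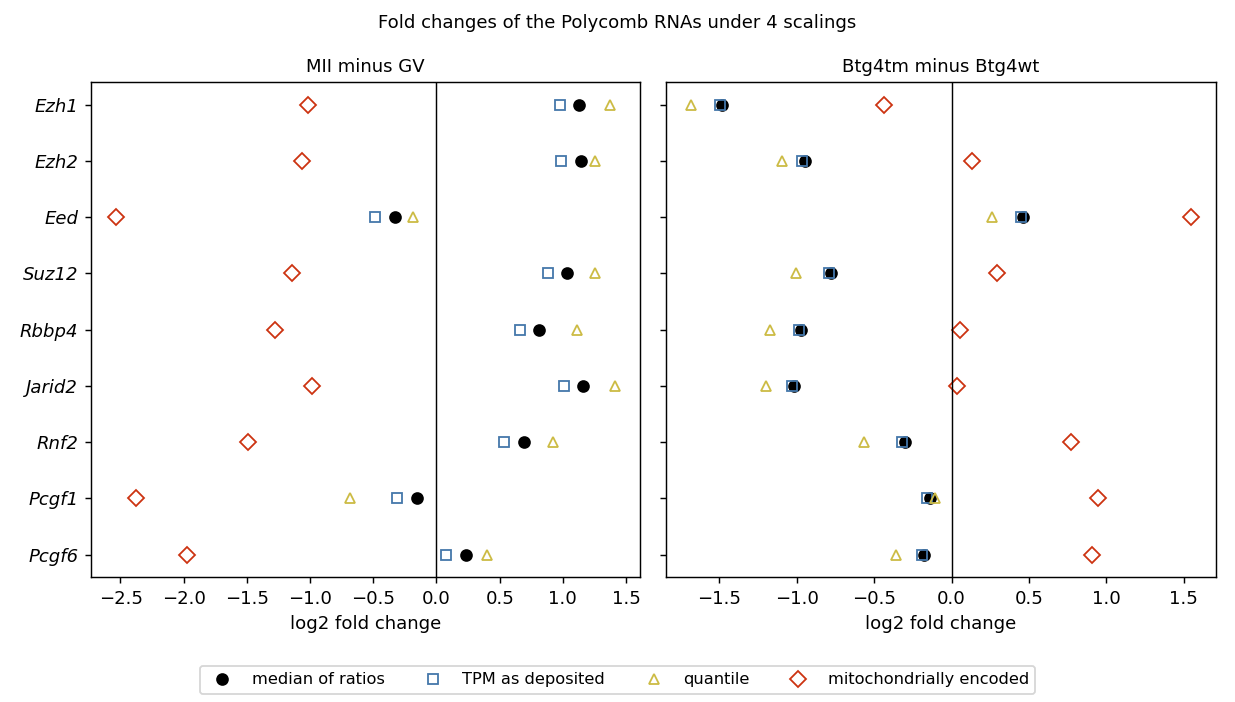
Log2 fold changes of the 9 Polycomb genes for MII minus GV (left) and Btg4tm minus Btg4wt (right) under 4 scalings of the TPM. Median of ratios, deposited TPM and quantile normalization gave the same sign for each gene, while scaling to mitochondrially encoded genes put all 9 below 0 on the left and 8 of 9 above 0 on the right, Ezh1 being the exception.

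The wider Polycomb system was read from a list of 59 symbols, of which 55 were in all tables and 53 were tested (Skp1 and Skp1a name the same gene). The list was chosen with earlier results of these data known, so its counts beside all genes are a description and no independent test. In MII against GV oocytes, 18 of 53 were called higher and 0 lower, beside 12.5% and 24.0% of all genes. At any fold change 31 and 3 passed the adjusted p, beside 29.8% and 32.8%, and the median was 0.64. In Btg4tm against Btg4wt oocytes, 0 were called higher and 16 lower, beside 18.1% and 7.94% of all genes. At any fold change 2 and 31 passed, beside 26.2% and 23.3%, and the median was −0.55. Scaled to mitochondrially encoded genes, these became 0 higher and 33 lower (median −1.17, all genes −1.74), and 7 higher and 1 lower (median 0.43, all genes 0.88). The examples below follow a fixed rule, give log2 fold changes by the median-of-ratios scaling and share this dependence.

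Of 8 other PRC2 genes tested, 4 were called higher in MII oocytes (12.5% of all genes) and 3 lower in Btg4tm than in Btg4wt oocytes (7.94% of all genes). Aebp2, an accessory subunit that binds DNA, went from 9.89 ± 1.64 to 30.8 ± 0.403 scaled TPM (SD, n = 2) between GV and MII, with a log2 fold change of 1.55 (adjusted p = 4.6e-05, limma). Rbbp7 went from 2418 ± 200.5 to 5867 ± 6.37 and Mtf2, a Polycomb-like protein that brings PRC2 to CpG islands, from 35.1 ± 4.70 to 71.5 ± 0.191. Phf1, another Polycomb-like protein, was at 49.1 ± 2.08 in Btg4wt and 22.9 ± 0.988 in Btg4tm oocytes, with a log2 fold change of −1.07 (adjusted p = 0.00078, limma).

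Of 12 other PRC1 subunits tested, 4 were called higher in MII (12.5% of all genes) and 3 lower in Btg4tm oocytes (7.94% of all genes). Scml2, a Polycomb protein of the germ line, was at 22.1 ± 7.22 in GV, 62.0 ± 1.02 in MII, 90.7 ± 25.0 in Btg4wt and 22.9 ± 2.10 scaled TPM in Btg4tm oocytes (SD, n = 2). Bmi1, a PCGF subunit of canonical PRC1, had a log2 fold change of 1.29 (adjusted p = 1.3e-05, limma) in MII against GV oocytes. Phc3, which polymerises PRC1 through its SAM domain, was called in both comparisons, at 1.15 and −1.69, and its relative Phc1 in the second, at −1.18.

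Among 18 tested partners of variant PRC1, 4 were called higher in MII (12.5% of all genes) and 7 lower in Btg4tm oocytes (7.94% of all genes). The catalytic subunit gene of casein kinase 2, Csnk2a1, was called in both comparisons, at 1.52 and −1.76. Kdm2b and Bcorl1, whose products work with PCGF1 at CpG islands, were at 43.1 ± 3.09 and 25.4 ± 4.34 scaled TPM in Btg4wt against 13.1 ± 0.423 and 5.59 ± 1.24 in Btg4tm oocytes (SD, n = 2). Pcgf1 itself was not called in this comparison. The deubiquitinase gene Usp7 was also called in both comparisons, at 1.07 and −1.28. Tfdp1, a partner of E2F factors, was called in MII against GV oocytes alone of these comparisons, at 1.17, and was at −0.36 in the other.

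Genes that remove Polycomb marks, and partner genes of the PR-DUB deubiquitinase complex, were counted in the same way. Both H3K27 demethylase genes were called higher in MII than in GV oocytes, and 4 of 13 genes of H2A deubiquitinases and the PR-DUB complex were too, beside 12.5% of all genes. Kdm6b went from 37.5 and 30.5 scaled TPM in GV to 157 and 144 in MII libraries, with a log2 fold change of 2.12 (SE 0.16, limma adjusted p = 1.3e-05), and Kdm6a from 22.7 and 22.8 to 68.8 and 56.6, with 1.42. Scaled to mitochondrially encoded genes, Kdm6b was at −0.068. Usp16, an H2A deubiquitinase, went from 55.4 and 53.2 to 163 and 150, and Hcfc1, a partner of BAP1, had a log2 fold change of 1.05. The other deubiquitinase genes of the list, Bap1 and Mysm1, were not called, at −0.069 and 0.75, though Mysm1 passed the adjusted p.

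In Btg4tm against Btg4wt oocytes, neither demethylase gene was called. Kdm6a had 56.1 and 52.5 scaled TPM in Btg4wt and 27.5 and 26.2 in Btg4tm libraries. Its log2 fold change of −0.99 (adjusted p = 0.00036, limma) passed the adjusted p and just missed the fold limit. Of the 13 genes of H2A deubiquitinases and the PR-DUB complex, 3 were called lower (7.94% of all genes), among them Hcfc1 at −1.62. The deubiquitinase genes themselves, Bap1, Usp16 and Mysm1, were not called, at −0.55, −0.41 and −0.44. Each passed the adjusted p (0.012, 0.034 and 0.024, limma) but not the fold limit. At any fold change, 11 of the 13 passed the adjusted p downwards and 0 upwards, beside 23.3% and 26.2% of all genes. Kdm6b was at 93.7 and 123 scaled TPM in Btg4tm against 133 and 151 in Btg4wt libraries, and did not pass the adjusted p (0.074, limma). Kdm6b and Usp16 were the 2 of 53 genes called higher in Btg4tm than in GV oocytes, at log2 fold changes of 1.64 and 1.04, beside 1.02% of all genes, and they are named after their values were seen.

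**Figure D5:**
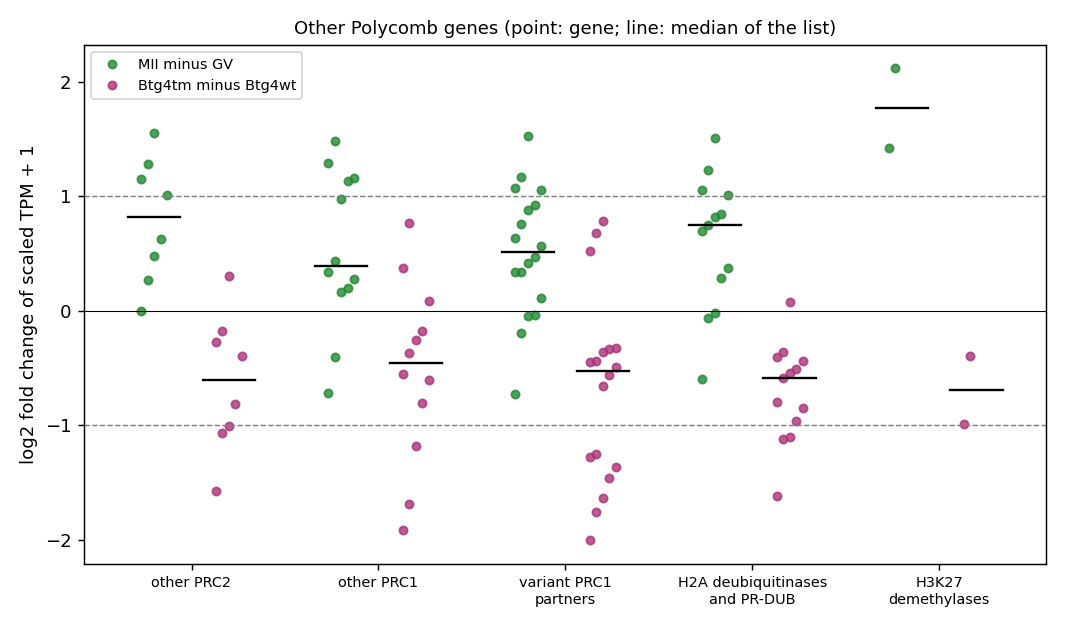
Log2 fold changes of 53 other Polycomb genes in 5 lists, for MII minus GV (green) and Btg4tm minus Btg4wt (purple); points are genes, black lines are medians of a list, and dashed lines mark the fold limit of 1. All 5 medians are above 0 in the first comparison and below 0 in the second by the median-of-ratios scaling; scaling to mitochondrially encoded genes shifts the median of all genes by −1.74 and 0.88 and turns the median of the 53 genes, to −1.17 and 0.43.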

How the data were processed

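The 8 Smart-seq2 libraries were grouped by their labels. The authors trimmed reads with Trim Galore 0.6.10, aligned them to GRCm38 with HISAT2 2.2.0, counted them on exons of GENCODE annotation with featureCounts 2.0.6 without regard to strand, and deposited TPM per gene symbol. They tested read counts with DESeq2, which were not used here, and the gene lengths behind the TPM are not given in the sources used here. From the deposited TPM, 1422 genes listed only for uninjected and 486 only for injected oocytes were left out. The rest were divided by median-of-ratios factors, transformed to log2(TPM + 1), which understates changes of low genes, and kept where at least 2 libraries had 1 TPM. All 8 libraries entered 1 fit of limma 3.58.1 in R 4.3.3 (eBayes with trend). Replicate libraries correlated at 0.982 to 0.987 across genes, and the procedure was tested on simulated data. The depth is unknown, so the precision rests on the spread between the 2 libraries of each group. That spread was pooled over all groups for each gene and moderated across genes, so a gene has 1 SE in every comparison.

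The members and lists (oocyte, cumulus and granulosa markers, other PRC2 and PRC1 genes, variant PRC1 partners, deubiquitinases, demethylases, genes imprinted by maternal H3K27me3) were chosen with earlier results of these data known. The text names every member and Btg4. Per list and main comparison, it names up to 3 called genes with the largest change and a mean of at least 10 scaled TPM. Bap1, Usp16 and Mysm1 were added as the deubiquitinase genes of their list. Positions, 3′UTRs and 50-base stretches came from GENCODE M21, an earlier release than the authors'. Alternatives were other scalings (deposited TPM, quantile, 19 mitochondrially encoded genes), pseudocount 0.1, no filter, a 5 TPM filter, the 4 libraries of a comparison alone, a replicate block, no trend, no fold limit, adjusted p under 0.01 and leaving out each library.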

Additional observations from a re-analysis of the deposited data

How the results depend on the processing

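Scaling mattered most. With mitochondrially encoded genes as reference, 0 Polycomb genes were called higher and 8 lower in MII than in GV oocytes, 1 higher and 0 lower in Btg4tm than in Btg4wt, and 1 lower in Btg4tm than in GV. Log2 fold changes then reversed in MII minus GV to −1.02 for Ezh1, −1.06 for Ezh2, −1.15 for Suz12, −0.99 for Jarid2, −1.27 for Rbbp4, −1.97 for Pcgf6 and −1.49 for Rnf2. In Btg4tm minus Btg4wt they reversed to 0.13 for Ezh2, 0.29 for Suz12, 0.033 for Jarid2, 0.055 for Rbbp4, 0.94 for Pcgf1, 0.91 for Pcgf6 and 0.77 for Rnf2, and in Btg4tm minus GV to −0.62 for Suz12 (adjusted p = 0.024, limma). Polycomb genes above 0 went from 5 to 0 of 9 in Btg4tm minus GV and from 4 to 9 in Btg4wt minus MII; apart from Suz12, those that changed sign there did not pass the adjusted p under either scaling. The cause was not tested. Deposited TPM left 1 gene called higher in MII, and quantile normalization called 5 lower in Btg4tm than in Btg4wt. Without a fold limit, 1 gene was lower in MII than in GV, and 1 was higher and 5 lower in Btg4tm than in Btg4wt, as that setting drops the limit. Leaving out 1 library at a time gave 2 to 4 genes called higher in MII than in GV (2 without MII replicate 1) and 1 to 4 lower in Btg4tm than in Btg4wt (1 without Btg4tm replicate 2, 4 without Btg4tm replicate 1), with the lone library assumed to vary like the other groups. A pseudocount of 0.1 turned the Ezh1 to Ezh2 ratio difference in MII minus GV from −0.017 to 0.012.

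Replicate numbers did not pair the libraries, since deviations of same-numbered libraries correlated at −0.054 to 0.055, and the replicate block left 4 genes called higher in MII and 2 lower in Btg4tm. The other alternatives kept every count of called Polycomb genes within 1.5 times. The share of a decline regained in Btg4tm was not computed, because no Polycomb gene was called lower in MII oocytes.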

Other observations

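Genes that Polycomb marks are known to silence were read beside the subunits. Of 6 genes imprinted by maternal H3K27me3, 2 were listed in all tables and 1, Gab1, was tested. Gab1 had 0.61 to 4.40 scaled TPM over the 8 libraries and was not called in any comparison. Sfmbt2 stayed under 1 scaled TPM in each library.

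Hox genes, textbook targets of PRC2, were looked at after values were seen. Of 10 listed in any table, 8 were in all tables and 4 were tested. Hoxa7 stood out, with 36.5 and 36.5 scaled TPM in GV, 77.5 and 77.7 in MII, 55.8 and 63.6 in Btg4wt, and 54.6 and 45.3 in Btg4tm libraries. No other Hox gene was above 3.48 in any library. In MII against GV oocytes Hoxa7 had a log2 fold change of 1.07 (SE 0.13, limma adjusted p = 0.00015), which became −1.11 when scaled to mitochondrially encoded genes. In Btg4tm against Btg4wt oocytes it was at −0.25 (adjusted p = 0.13).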
